A study of Mus musculus with 12 samples.

Results

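The expression of 8 ion channel genes of microglia was followed through a comparison of glucose level and CD200Fc in a mouse microglial line: Kcna3, Kcnh2, Kcnn4, Kcnk6, Kcnk13, Kcnj2, Hvcn1 and Clic1. They were chosen by gene name, with earlier results of the same data known, and are 8 of the 55487 gene identifiers in the count table. All 8 passed the filter on low counts that left 19182 genes for testing. The choice was made with results in view, and the contrast behind it is not recorded. The fold changes and p-values of the 8 genes are therefore rows of a fit across all tested genes, given as a description, and support nothing beyond the values themselves.

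The source labels name BV2, a mouse microglial line made immortal, whose cultures held high or normal glucose and either CD200Fc at 50 ng/mL or none. The 4 groups were high glucose with CD200Fc (HG+CD200Fc), high glucose (HG), normal glucose with CD200Fc (NG+CD200Fc) and normal glucose (NG), with 3 libraries each. CD200Fc joins the ligand CD200 to an antibody Fc part and engages CD200R1, a receptor that restrains myeloid cells. The sources used here give neither the glucose concentrations nor the exposure times. No group controlled for the Fc part or for osmolarity. Separate cultures behind the 3 libraries of a group are not documented, so the p-values describe the spread between libraries, possibly a technical one. The treatment protocol in the labels goes against this source, since it deals with dissected mouse retinas from which GFP-positive cells were sorted, and the libraries are called BV2 here by their source.

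Total counts per library were 2.15e+07 to 3.19e+07. HG replicate 2 stood apart, since rRNA genes took 1.53% of its counts and no more than 0.122% elsewhere. Of 14 microglia and macrophage markers, 14 averaged at least 1 CPM (counts per 1000000 counts of a library after scaling), although Cx3cr1 (2.68 CPM) and P2ry12 (1.68 CPM) were low. Their summed level was 3951 to 4138 CPM in HG+CD200Fc, 3969 to 4537 CPM in HG, 4338 to 4421 CPM in NG+CD200Fc and 4552 to 4786 CPM in NG, so it was lowest in HG+CD200Fc and highest in NG, and its part in the results was not tested. Of the markers of other cells, 1 of 8 for neurons and photoreceptors (Pde6b, 32.5 CPM, with Crx at 0 counts), 3 of 5 for Muller glia and astrocytes, 3 of 6 for endothelial and mural cells, 0 of 5 for lymphocytes and 0 of 2 for erythrocytes averaged at least 1 CPM. In HG+CD200Fc, HG, NG+CD200Fc and NG libraries in turn, the summed CPM was 36.0 to 38.6, 28.1 to 30.7, 28.2 to 36.3 and 31.4 to 38.9 for the neuron and photoreceptor list. In the same order it was 9.85 to 11.5, 12.7 to 13.8, 10.7 to 11.9 and 8.81 to 10.3 CPM for the endothelial and mural list, highest in HG. For the Muller glia and astrocyte list it was 141 to 147, 148 to 167, 147 to 152 and 152 to 156 CPM. Nearly all of that was Glul (149.5 CPM), with Gfap at 1.05, Rlbp1 at 1.07, Slc1a3 at 0.112 and Aqp4 at 0.00311 CPM. For lymphocytes the summed level was at most 2.32 CPM and for erythrocytes at most 0.315 CPM, both in HG. The part of these markers in the results was not tested. In bulk RNA, a lower share of cells with a transcript and less of it per cell cannot be told apart.

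As background, ion channels set the membrane potential of microglia and carry the potassium, calcium, proton and chloride fluxes that go with their activation. Potassium leaving through Kcna3 (the voltage-gated channel Kv1.3) or Kcnn4 (the calcium-activated channel KCa3.1) keeps the membrane negative, which sustains calcium entry. Kcnj2 (the inward rectifier Kir2.1) and the tandem-pore channels Kcnk13 (THIK-1) and Kcnk6 (TWIK-2) set the resting potential, and Kcnk13 and Kcnk6 have been tied to potassium efflux before inflammasome activation. Kcnh2 is the voltage-gated ERG channel best known from the heart. Hvcn1 is the voltage-gated proton channel that compensates charge during the NADPH oxidase burst, and Clic1 is a chloride intracellular channel protein found both soluble and in membranes.

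The upstream sequences of Kcna3 and Kcnn4 are shown because these were the 2 genes whose response to CD200Fc differed between the glucose levels in the fit across all genes. Each is the 250 bases upstream of the annotated RefSeq start (assembly GRCm38.p6), written 5′ to 3′ on the strand of the gene, with GC boxes (GGGCGG on either strand) in capitals. Kcna3 is at chr3:107035912-107036161 on the plus strand, and Kcnn4 at chr7:24370013-24370262 on the plus strand.
Kcna3: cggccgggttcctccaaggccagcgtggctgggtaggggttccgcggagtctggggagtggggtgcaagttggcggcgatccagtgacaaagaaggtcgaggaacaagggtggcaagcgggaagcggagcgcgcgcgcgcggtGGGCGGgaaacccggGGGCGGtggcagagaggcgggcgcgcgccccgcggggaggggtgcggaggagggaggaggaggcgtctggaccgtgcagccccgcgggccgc
Kcnn4: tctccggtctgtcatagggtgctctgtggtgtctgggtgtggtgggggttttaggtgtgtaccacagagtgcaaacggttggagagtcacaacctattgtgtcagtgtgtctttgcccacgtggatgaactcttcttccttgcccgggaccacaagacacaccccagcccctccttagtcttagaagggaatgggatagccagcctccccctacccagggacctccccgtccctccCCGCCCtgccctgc

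The Kcna3 window was 74.4% G and C with 31 CpG dinucleotides and 2 GC boxes, and 94.8% of the 32851 mouse windows of that length had fewer CpG. The Kcnn4 window was 58.8% G and C with 6 CpG, more than 49.6% of the windows, and held 1 GC box and 1 E-box (CACGTG). Over all windows the median was 52.4% G and C with 6 CpG, 32.7% held a GC box and 6.02% an E-box. A TATA box (TATAAA, in 12.4% of windows), a CCAAT box (CCAAT, 33.8%) and a CRE (TGACGTCA, 1.55%) were searched on both strands and matched neither window, and no 2 matches overlapped. A window was matched for 6 of the 8 genes, those other than Hvcn1 and Kcnk6. Kcnk13 had the lowest G and C content of the 6, with 52.8%, 8 CpG and no GC box. The Kcnh2 window held 3 GC boxes and the Clic1 window 1. The windows of Kcnh2 and Clic1 are upstream of RefSeq starts that lie inside the gene spans of the annotation. These letter matches are descriptions and not binding sites.

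Per transcript length, the 8 genes covered a wide range of levels. TPM (counts per exon length of GENCODE M21, scaled to 1000000 in each library) was used only to set genes beside each other. As mean ± SD of the 12 libraries, Clic1 was highest at 639 ± 36.5 TPM, above 98.8% of tested genes, followed by Kcnn4 at 84.2 ± 9.39 TPM, Kcnj2 at 69.3 ± 3.80 TPM, Kcnk6 at 49.2 ± 5.02 TPM, Kcnk13 at 46.7 ± 4.97 TPM and Hvcn1 at 15.1 ± 1.46 TPM. The voltage-gated potassium channels were lowest, Kcna3 at 4.16 ± 1.81 TPM, above 34.7% of tested genes, and Kcnh2 at 1.07 ± 0.404 TPM, above 12.8%. The ranges of neighbouring genes in this order did not overlap over the 12 libraries, except those of Kcnn4 and Kcnj2 and those of Kcnk6 and Kcnk13. Within a library Kcnn4 was above Kcnj2 in 12 of 12 and Kcnk6 above Kcnk13 in 11 of 12.

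Of the 8 genes, 6 encode potassium channel pores. Of 77 mouse pore genes matched, 24 passed the filter, 16 averaged at least 1 CPM and 7 had no count in any library. The 6 held 83.1% of the summed 307 TPM of all pore genes. Kcnn4, Kcnj2, Kcnk6 and Kcnk13 led the class, ahead of the inward rectifier Kcnj9 at 18.9 ± 3.38 TPM and the tandem-pore gene Kcnk12 at 12.8 ± 1.34 TPM (SD, n = 12 libraries).

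**Figure D1:**
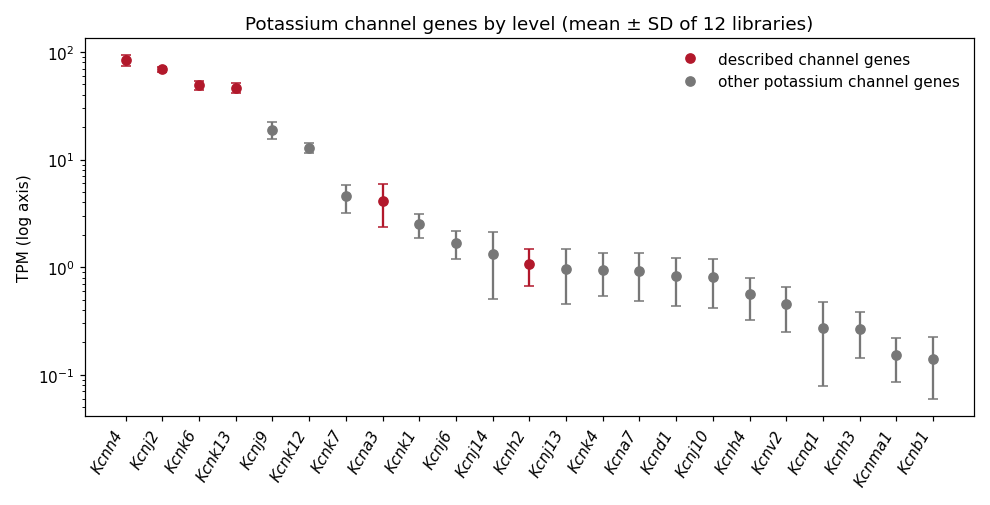
Level of 23 of the 24 tested potassium channel pore genes in TPM (log axis), as the mean of 12 libraries with SD. The 6 described genes are in red and other pore genes in grey; Kcnn4 at 84.2 TPM is at the left, Kcna3 at 4.16 TPM near the middle and Kcnh2 at 1.07 TPM lower still.

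Kcna3 had the widest differences between groups of the 8 genes. It is a gene of 1 exon block of 1902 bases on chromosome 3 (ENSMUSG00000047959, GRCm38 chr3:107036169-107038070, plus strand). HG+CD200Fc libraries had 2.39, 3.96 and 4.40 CPM and HG libraries 1.13, 1.74 and 1.97 CPM. NG+CD200Fc libraries had 1.78, 1.57 and 1.89 CPM and NG libraries 2.54, 3.29 and 2.36 CPM. These values rest on 33 to 96 counts per library. The means were 3.58 ± 1.06 CPM in HG+CD200Fc and 1.61 ± 0.435 CPM in HG, and 1.75 ± 0.166 CPM in NG+CD200Fc and 2.73 ± 0.492 CPM in NG (SD, n = 3 each). From high to low the order was HG+CD200Fc, NG, NG+CD200Fc and HG. The ranges of HG+CD200Fc and NG overlapped, as did those of NG+CD200Fc and HG, and the range of NG+CD200Fc lay below that of NG.

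In high glucose without CD200Fc, Kcna3 was lower than in normal glucose, with a log2 fold change of -0.76 ± 0.27 (SE; edgeR quasi-likelihood test with Benjamini-Hochberg adjustment over all genes, adjusted p = 0.0397). With CD200Fc added in high glucose it was higher than in HG, by 1.15 ± 0.27 log2 or 2.22-fold (edgeR adjusted p = 0.00289). The HG libraries enter both of these contrasts. In normal glucose CD200Fc gave -0.64 ± 0.27 log2, with all 3 NG+CD200Fc libraries below all 3 NG libraries, but this did not pass (unadjusted p = 0.0250, edgeR adjusted p = 0.816). Between HG+CD200Fc and NG+CD200Fc the log2 difference was 1.02 ± 0.27 (edgeR adjusted p = 0.0176). The difference of the CD200Fc effects, high minus normal glucose, was 1.79 ± 0.38 log2 (edgeR adjusted p = 0.00323).

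The HG versus NG call was lost without HG replicate 1 (-0.58 log2, adjusted p = 0.151), HG replicate 2 (-0.83, 0.0643), NG replicate 1 (-0.83, 0.0604) or NG replicate 2 (-0.61, 0.158), with upper quartile scaling (-0.73, 0.0535) and with limma voom (-0.63, 0.0791). Over all 20 alternatives its adjusted p was 0.0232 to 0.158. The call between HG+CD200Fc and NG+CD200Fc was lost without HG+CD200Fc replicate 2 (adjusted p = 0.102) or 3 (0.110) and without NG+CD200Fc replicate 1 (0.0593) or 3 (0.0636), within a range of 0.00436 to 0.110. The call for CD200Fc in high glucose passed in 20 of 20 alternative settings, with 0.95 to 1.38 log2, and that for the interaction in 19 of 19, with 1.59 to 2.02 log2. Without HG replicate 2 these 2 values were 1.21 and 1.85 log2.

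**Figure D2:**
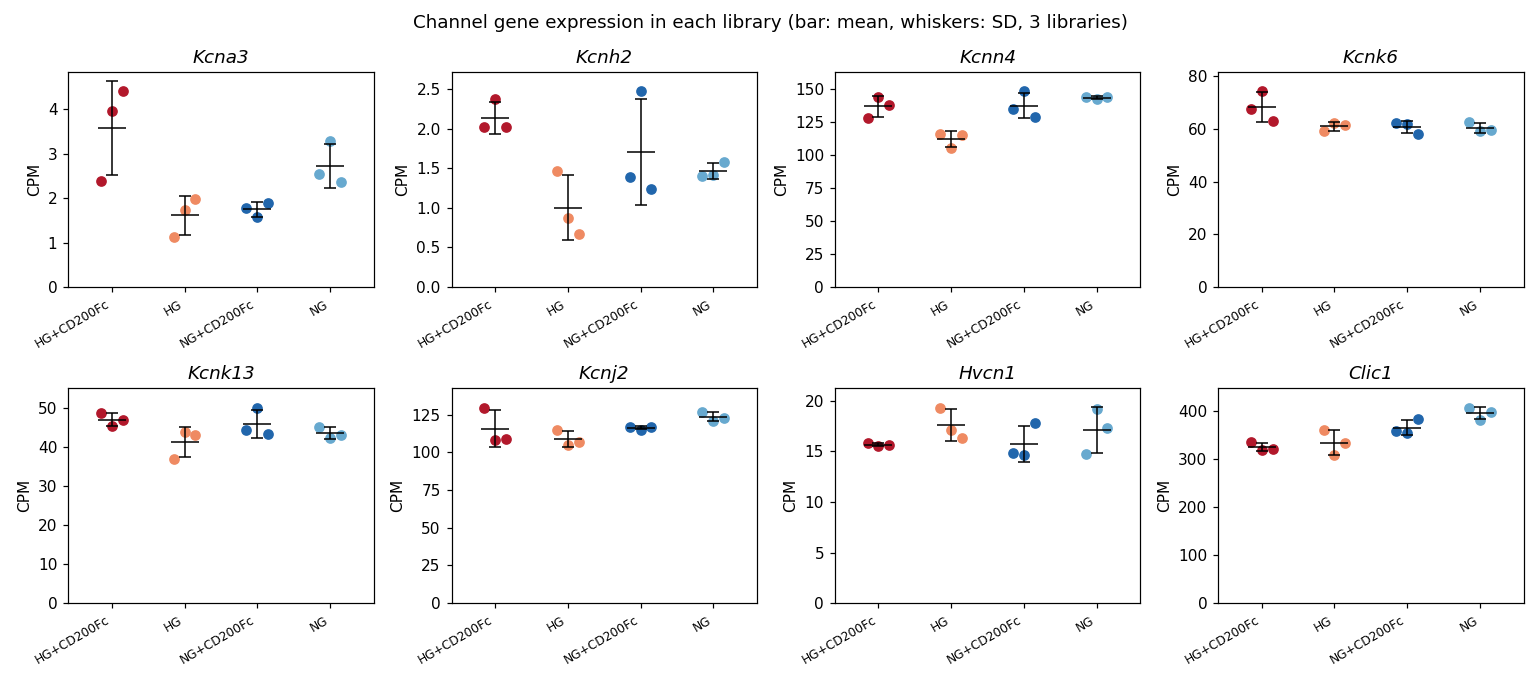
CPM of each gene in each library (linear axes from 0), with the mean as a bar and SD as whiskers (3 libraries per group). Kcna3 lies at 2.39 to 4.40 CPM in HG+CD200Fc and 1.13 to 1.97 CPM in HG, and Kcnn4 at 128 to 144 CPM in HG+CD200Fc and 105 to 116 CPM in HG.

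Kcnh2, the other voltage-gated potassium channel gene (ENSMUSG00000038319, chr5:24319589-24351604, minus strand), was the lowest of the 8 and rests on 17 to 63 counts per library. HG+CD200Fc libraries had 2.02, 2.37 and 2.02 CPM and HG libraries 1.47, 0.871 and 0.670 CPM. NG+CD200Fc libraries had 1.39, 2.47 and 1.24 CPM and NG libraries 1.40, 1.41 and 1.58 CPM. All HG+CD200Fc libraries lay above all HG and all NG libraries, while in the other contrasts tested the groups overlapped, and 1 NG+CD200Fc library stood well above the other 2. Kcnh2 was higher in HG+CD200Fc than in HG by 1.07 ± 0.33 log2 (edgeR adjusted p = 0.0211). That call was lost without HG+CD200Fc replicate 2 (adjusted p = 0.0787), HG replicate 2 (0.0729) or HG replicate 3 (0.111), the highest of the alternatives, which began at 0.00536. HG versus NG gave -0.53 ± 0.33 log2 (edgeR adjusted p = 0.265) and the interaction 0.86 ± 0.46 log2 (adjusted p = 0.309), and neither passed.

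Kcnn4, the calcium-activated potassium channel gene (ENSMUSG00000054342, chr7:24370263-24386690, plus strand), had 2774 to 4152 counts per library and was lowest in high glucose without CD200Fc. HG+CD200Fc libraries had 128, 144 and 138 CPM and HG libraries 116, 105 and 115 CPM. NG+CD200Fc libraries had 135, 148 and 129 CPM and NG libraries 144, 142 and 144 CPM. The 3 HG libraries were below all others, while the ranges of HG+CD200Fc, NG+CD200Fc and NG overlapped. Kcnn4 was lower in HG than in NG by a log2 fold change of -0.36 ± 0.061 (edgeR adjusted p = 8.39e-05) and higher in HG+CD200Fc than in HG by 0.29 ± 0.061 log2 (adjusted p = 0.00113), both contrasts using the HG libraries. CD200Fc in normal glucose gave -0.064 ± 0.061 log2 (edgeR adjusted p = 0.879), and the CD200Fc effects differed between the glucose levels by 0.35 ± 0.086 log2 (adjusted p = 0.0102). The calls for HG versus NG, HG+CD200Fc versus HG and the interaction passed in 20 of 20, 20 of 20 and 19 of 19 alternative settings. Without HG replicate 2 the values were -0.31, 0.24 and 0.31 log2.

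Kcnk6 and Kcnk13, the tandem-pore channel genes, passed no test. Kcnk6 (ENSMUSG00000046410, chr7:29221926-29232515, minus strand) had 67.7, 74.2 and 62.9 CPM in HG+CD200Fc libraries and 59.1, 62.4 and 61.6 CPM in HG libraries. It had 62.2, 61.7 and 58.0 CPM in NG+CD200Fc libraries and 62.5, 59.1 and 59.5 CPM in NG libraries. The HG+CD200Fc range lay above those of the other 3 groups, with 0.16 ± 0.064 log2 against HG (edgeR adjusted p = 0.0827) and 0.17 ± 0.064 log2 against NG+CD200Fc (adjusted p = 0.0937). Kcnk6 passed the first of these with DESeq2 (adjusted p = 0.0488) and without HG+CD200Fc replicate 3 (0.0365), and the second with upper quartile scaling (0.0466). Over the alternatives the adjusted p was 0.0365 to 0.399 for the first and 0.0466 to 0.441 for the second.

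Kcnk13 (ENSMUSG00000045404, chr12:99964499-100062682, plus strand) had 48.8, 45.5 and 47.1 CPM in HG+CD200Fc libraries and 36.9, 44.0 and 43.3 CPM in HG libraries. It had 44.4, 50.2 and 43.4 CPM in NG+CD200Fc libraries and 45.3, 42.4 and 43.2 CPM in NG libraries. HG+CD200Fc lay above HG in all libraries, with 0.19 ± 0.076 log2 (edgeR adjusted p = 0.0912), and also above NG, while in the other contrasts tested the groups overlapped. HG versus NG gave -0.075 ± 0.076 log2 (edgeR adjusted p = 0.518) for Kcnk13 and 0.016 ± 0.064 log2 (adjusted p = 0.891) for Kcnk6.

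Kcnj2, the inward rectifier gene (ENSMUSG00000041695, chr11:111066164-111076821, plus strand), was lower in HG than in NG, without CD200Fc. HG+CD200Fc libraries had 129.6, 108 and 109 CPM and HG libraries 115, 105 and 107 CPM. NG+CD200Fc libraries had 117, 115 and 117 CPM and NG libraries 127, 121 and 123 CPM. HG and NG did not overlap, and 1 HG+CD200Fc library was the highest of the 12. The HG versus NG log2 fold change was -0.18 ± 0.063 (edgeR adjusted p = 0.0336). It was lost with upper quartile scaling (adjusted p = 0.0622) and without HG replicate 2 (0.116), HG replicate 3 (0.0755), NG replicate 1 (0.0904) or NG replicate 3 (0.0506), and the alternatives ran from 0.00853 to 0.116. With CD200Fc the means were 116 ± 12.2 CPM in HG+CD200Fc and 116 ± 1.57 CPM in NG+CD200Fc (SD, n = 3 each), the groups overlapped and the log2 fold change was -0.0087 ± 0.063 (edgeR adjusted p = 0.955). CD200Fc in high glucose gave 0.087 ± 0.064 log2 (edgeR adjusted p = 0.408), which did not pass.

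Hvcn1, the proton channel gene (ENSMUSG00000064267, chr5:122206804-122242297, plus strand), passed no test. HG+CD200Fc libraries had 15.8, 15.5 and 15.6 CPM and HG libraries 19.3, 17.1 and 16.3 CPM. NG+CD200Fc libraries had 14.8, 14.6 and 17.8 CPM and NG libraries 14.7, 19.2 and 17.3 CPM. HG+CD200Fc lay below HG in all libraries, at -0.17 ± 0.11 log2 (edgeR adjusted p = 0.331), and HG versus NG gave 0.042 ± 0.11 log2 (adjusted p = 0.822). Hvcn1 shares 1574 exon bases with Tctn1 on the opposite strand, and the sources used here do not state whether counting used the strand, so its counts are uncertain.

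Clic1, the chloride intracellular channel gene (ENSMUSG00000007041, chr17:35049966-35058749, plus strand), was lower in high than in normal glucose. HG+CD200Fc libraries had 334, 318 and 321 CPM and HG libraries 359, 307 and 333 CPM. NG+CD200Fc libraries had 358, 354 and 382 CPM and NG libraries 406, 381 and 396 CPM. HG and NG did not overlap, and neither did HG+CD200Fc and NG+CD200Fc. HG versus NG gave a log2 fold change of -0.24 ± 0.056 (edgeR adjusted p = 0.00182), which passed in 20 of 20 alternative settings and was -0.19 without HG replicate 2. HG+CD200Fc versus NG+CD200Fc gave -0.17 ± 0.056 log2 (edgeR adjusted p = 0.0617) and passed in 7 of 20 settings, among them DESeq2 (adjusted p = 0.0417) and limma voom (0.0166), the range being 0.0166 to 0.278. CD200Fc gave -0.037 ± 0.056 log2 in high glucose (edgeR adjusted p = 0.733), with the groups overlapping.

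Set beside the whole table, 4 of the 8 genes were called lower in HG than in NG and none higher, where 24.6% of all tested genes were called and 12.9% called lower. Their median log2 fold change was -0.21, against 0.021 over all tested genes. Without HG replicate 2, NG replicate 1 or with upper quartile scaling, 2 of the 8 were called. Ranges were apart and lower for 4 of the 8, as for 19.8% of all genes. For HG+CD200Fc versus HG, 3 of the 8 were called higher and none lower, where 17.8% of all genes were called and 9.46% called higher, with a median of 0.17 against -0.021. Ranges were apart and higher for 5 of the 8, as for 15.3% of all genes, and apart and lower for 1, as for 16.0%.

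For NG+CD200Fc versus NG edgeR called none of the 8 genes and 0% of all genes. In that contrast 1147 of the 19182 genes (5.98%) had an unadjusted p under 0.05, Kcna3 alone among the 8, while DESeq2 called 0 genes and limma voom 1. Ranges there were apart and lower for 2 of the 8, Kcna3 and Kcnj2, as for 6.16% of all genes. For HG+CD200Fc versus NG+CD200Fc, 1 of the 8 was called, Kcna3, where 8.30% of all genes were called and 4.65% called higher. Ranges were apart and higher for 2 of the 8, Kcna3 and Kcnk6, as for 13.0% of all genes, and apart and lower for Clic1, as for 14.2%. Of the calls over all genes 56.0% were higher, and 69.3% were with upper quartile scaling. For the interaction 2 of the 8 were called, both positive, where 7.20% of all genes were called and 3.62% were positive. Since the 8 were picked with results known, these shares are a description.

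**Figure D3:**
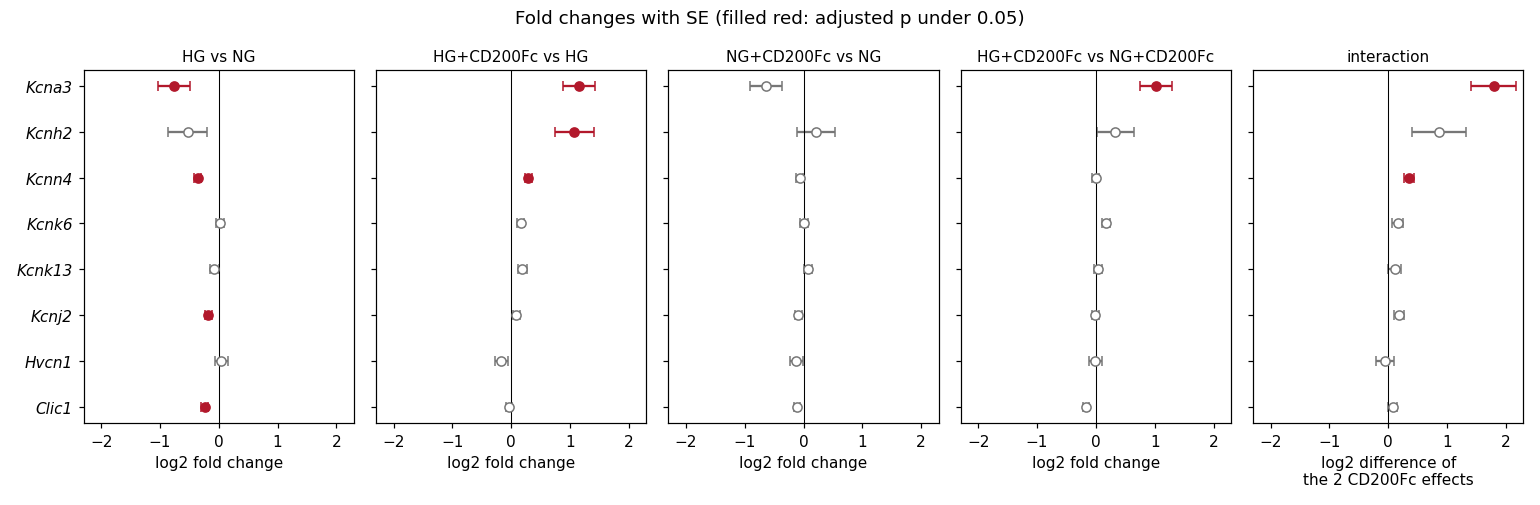
Log2 fold change of each gene in the 4 contrasts and the interaction, with SE from the edgeR fit; filled red points had an adjusted p under 0.05. Kcna3 runs from -0.76 in HG vs NG to 1.79 for the interaction, and Kcnk6, Kcnk13 and Hvcn1 have no filled point.

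The authors' deposited table of comparisons lists all 8 genes among 15372. In the authors' deposited table Kcna3 had log2 fold changes of -0.75 for HG versus NG (FDR 0.0275), 1.15 for HG+CD200Fc versus HG (FDR 0.000483) and -0.64 for NG+CD200Fc versus NG (FDR 0.765). Kcnj2 in HG versus NG was just above the threshold in the authors' deposited table, with an FDR of 0.0504. The authors' deposited table also sets HG+CD200Fc against NG, where Kcna3 had 0.39 (FDR 0.286), Clic1 had -0.27 (FDR 0.00149) and Kcnk6 had 0.19 (FDR 0.0346).

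The genes whose library profile was closest to that of Kcna3 were searched among 11185 genes of at least 1 CPM, by the root mean square difference of log2 CPM over the 12 libraries after centring each gene. The 5 closest were Ccdc88c (0.254), which encodes a Dishevelled-binding signalling protein, Cpm (0.319), which encodes carboxypeptidase M, Adam4 (0.323), of the ADAM metallopeptidase family, Mxra7 (0.342) and Hcn2 (0.342), a hyperpolarization-activated cation channel gene. For scale, the profile of Kcna3 itself spread by 0.525 around its mean, and the median difference over all ranked genes was 0.551. Ccdc88c averaged 8.19 ± 1.80 CPM in HG+CD200Fc, 4.01 ± 0.692 CPM in HG, 4.93 ± 0.889 CPM in NG+CD200Fc and 5.50 ± 0.667 CPM in NG (SD, n = 3 each). Hcn2 averaged 14.8 ± 1.85 CPM in HG+CD200Fc, 9.01 ± 0.946 CPM in HG, 10.1 ± 0.610 CPM in NG+CD200Fc and 11.0 ± 1.62 CPM in NG. Cpm, Adam4 and Mxra7 averaged only 1.14, 1.21 and 1.04 CPM over the 12 libraries, near the limit of 1 CPM. Their profiles therefore rest on low counts. Among the other 7 channel genes Kcnn4 was closest, at 0.465. With upper quartile scaling 5 of the 5 genes recurred, and without HG replicate 2 it was 3 of 5.

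**Figure D4:**
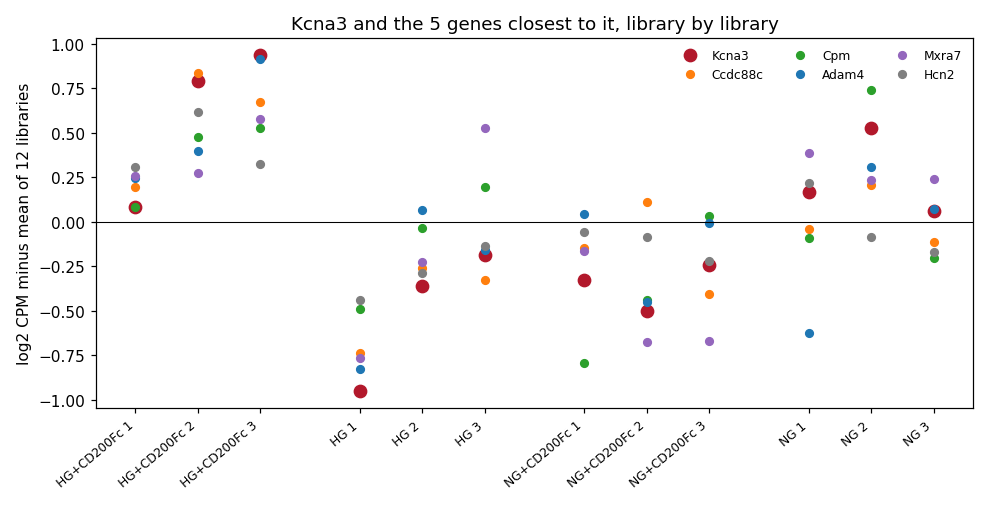
Log2 CPM minus its mean over the 12 libraries, for Kcna3 (large red points) and the 5 genes closest to it, library by library. Kcna3 lies between 0.082 and 0.94 in HG+CD200Fc and between -0.951 and -0.189 in HG, and the genes were picked for this likeness.

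The wider channel and transporter gene families were listed by name, with earlier results known. Without the 8 genes, 101 of 226 matched genes passed the filter. In HG versus NG 17 of the 101 were higher and 9 lower (25.7% called), in HG+CD200Fc versus HG 12 higher and 7 lower (18.8%), in NG+CD200Fc versus NG none (0 of 101), in HG+CD200Fc versus NG+CD200Fc 9 higher and none lower (8.91%), and in the interaction 4 positive and 3 negative (6.93%). These shares are near those of all tested genes in each contrast. The medians were 0.11, -0.014, 0.033, 0.15 and -0.046 log2 in that order, beside 0.021, -0.021, -0.00033, -0.00055 and -0.0082 over all genes.

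Among potassium channel pores other than the 6, 3 of 18 tested were higher and 1 lower in HG than in NG, and 3 were higher in HG+CD200Fc than in HG. That is 22.2% called in the first contrast, against 24.6% of all tested genes, and 16.7% in the second, against 17.8%. Kcnd1, an A-type channel gene, was higher in HG (1.86 ± 0.684 CPM) than in NG (0.686 ± 0.201 CPM; SD, n = 3 each; log2 1.42 ± 0.37, edgeR adjusted p = 0.00555), a call lost without HG replicate 3 (adjusted p = 0.0644). Kcnj9, a G protein-gated rectifier gene, was also higher in HG (28.5 ± 2.49 CPM) than in NG (21.0 ± 1.01 CPM; log2 0.44 ± 0.090, edgeR adjusted p = 0.000592). By family, with the 8 genes included, the voltage-gated list (10 tested) had 2 higher and 2 lower in HG versus NG and 4 higher in HG+CD200Fc versus HG. Kcna3 is among those 2 lower, and Kcna3 and Kcnh2 are among those 4 higher. The inward rectifiers (6 tested) had 1 higher and 1 lower, the latter Kcnj2, then 1 higher, and the tandem-pore genes (6 tested) none in either. Over all tested genes 11.7% were higher and 12.9% lower in HG versus NG, and 9.46% were higher in HG+CD200Fc versus HG.

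Of 10 tested auxiliary subunit genes, none passed in HG versus NG, where 24.6% of all tested genes did. In HG+CD200Fc versus HG 1 was higher (10.0% called, against 17.8% of all tested genes). That gene was Kcnab2, a beta subunit that binds Kv1 channels such as Kcna3, with 261 ± 7.90 CPM in HG+CD200Fc and 231 ± 5.75 CPM in HG (log2 0.18 ± 0.055, edgeR adjusted p = 0.0263). The Kcnab2 call was lost without HG+CD200Fc replicate 2 (0.120) or 3 (0.0594) and without HG replicate 2 (0.0727). In the list of calcium- and sodium-activated potassium channels 2 genes were tested, and Kcnn4 alone passed.

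TRP channels, mostly calcium-permeable cation channels, were tested for 11 genes. In HG versus NG 4 were higher, where 11.7% of all tested genes were, and in HG+CD200Fc versus HG 4 were lower, where 8.30% of all tested genes were. The contrasts share the HG libraries, and the sets of 4 differ: Trpm4, Trpv2 and Mcoln1 passed in both, Trpm2 in the first and Mcoln2 in the second. The Mcoln2 call was lost in 7 of the 12 fits that left out a library, with an adjusted p of up to 0.145 without HG+CD200Fc replicate 2. Mcoln1 lost its HG versus NG call without NG replicate 1 (edgeR adjusted p = 0.0886). It lost its HG+CD200Fc versus HG call without HG+CD200Fc replicate 3 (0.0927) or HG replicate 3 (0.0830). Trpm4, a calcium-activated cation channel that depolarizes cells, averaged 32.7 ± 1.81 CPM in HG and 16.5 ± 2.16 CPM in NG (log2 0.98 ± 0.11, edgeR adjusted p = 3.95e-07). It averaged 20.6 ± 2.99 CPM in HG+CD200Fc (log2 -0.67 ± 0.11 against HG, edgeR adjusted p = 8.41e-05) and 16.9 ± 2.32 CPM in NG+CD200Fc. Trpv2, a cation channel of phagocytes, was higher in HG (177 ± 9.62 CPM) than in NG (149 ± 0.236 CPM; log2 0.25 ± 0.054, edgeR adjusted p = 0.00106). Trpm2, which opens under oxidative stress, was higher in HG (5.75 ± 1.09 CPM) than in NG (3.24 ± 0.373 CPM; log2 0.83 ± 0.20, edgeR adjusted p = 0.00306).

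Among store-operated and voltage-gated calcium channel genes, 2 of 15 were higher and 3 lower in HG than in NG, and 2 higher and 1 lower in HG+CD200Fc than in HG. Orai2, a pore subunit of store-operated calcium entry, was higher in HG+CD200Fc (52.0 ± 2.71 CPM) than in HG (42.3 ± 3.24 CPM; log2 0.30 ± 0.071, edgeR adjusted p = 0.00361). Stim2, a calcium sensor of the endoplasmic reticulum, was also higher in HG+CD200Fc (58.0 ± 2.39 CPM) than in HG (48.3 ± 4.24 CPM; log2 0.26 ± 0.068, edgeR adjusted p = 0.00599). Orai1 and Stim1, of the same list, passed in neither HG versus NG nor HG+CD200Fc versus HG. The gene that was lower in HG+CD200Fc (16.2 ± 0.293 CPM) than in HG (22.9 ± 3.72 CPM) was Cacna1b (log2 -0.50 ± 0.11, edgeR adjusted p = 0.00210). Cacna1b was higher in HG than in NG (log2 0.69 ± 0.11, edgeR adjusted p = 5.64e-05). Of 5 sodium channel genes tested none passed in any contrast.

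Of 25 chloride channel genes tested, Clic1 included, 4 were higher and 3 lower in HG than in NG, and 4 higher and 1 lower in HG+CD200Fc than in HG. Clic4, a relative of Clic1, was lower in HG (619 ± 11.8 CPM) than in NG (726 ± 15.2 CPM; log2 -0.23 ± 0.046, edgeR adjusted p = 0.000522) and higher in HG+CD200Fc (715 ± 12.2 CPM) than in HG (log2 0.21 ± 0.046, adjusted p = 0.00176). Clcn7, the chloride-proton exchanger of lysosomes, was higher in HG (176 ± 3.10 CPM) than in NG (129 ± 2.25 CPM; log2 0.44 ± 0.052, edgeR adjusted p = 3.98e-07) and lower in HG+CD200Fc (140.4 ± 5.11 CPM) than in HG (log2 -0.32 ± 0.052, adjusted p = 4.00e-05). In the list of proton channels and sodium-proton exchangers, which holds Hvcn1, 2 of 8 were higher in HG than in NG and none passed in HG+CD200Fc versus HG. Those 2 are 25.0% of the list, against 24.6% of all tested genes called in HG versus NG.

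A last list held 19 partners of the 8 channels, such as calmodulins, purine receptors and the NADPH oxidase that Hvcn1 serves. Of these, 6 were higher and 3 lower in HG than in NG, 1 higher and 6 lower in HG+CD200Fc than in HG, and none passed in NG+CD200Fc versus NG. That is 47.4% of the list in the first contrast, against 24.6% of all tested genes, and 36.8% in the second, against 17.8%. Among those lower in HG were Calm2 and Calm3, chosen after their values were seen, which encode calmodulin, the calcium sensor of Kcnn4. Calm2 averaged 173 ± 7.53 CPM in HG and 209 ± 3.97 CPM in NG (log2 -0.27 ± 0.061, edgeR adjusted p = 0.00147), and Calm3 278 ± 25.9 CPM in HG and 332 ± 13.1 CPM in NG (log2 -0.26 ± 0.059, adjusted p = 0.00191). The 1 higher in HG+CD200Fc than in HG was Kcnab2. Ncf4, an oxidase subunit, was higher in HG (339 ± 13.8 CPM) than in NG (253 ± 12.5 CPM; log2 0.42 ± 0.053, edgeR adjusted p = 1.15e-06) and lower in HG+CD200Fc (247 ± 1.42 CPM) than in HG (log2 -0.46 ± 0.053, adjusted p = 4.32e-07). Cybb, the catalytic subunit, was higher in HG (1406 ± 47.3 CPM) than in NG (1136 ± 17.1 CPM; log2 0.31 ± 0.048, edgeR adjusted p = 3.10e-05) and lower in HG+CD200Fc (1180 ± 38.7 CPM) than in HG (log2 -0.25 ± 0.048, adjusted p = 0.000377). P2rx4, an ATP-gated cation channel of microglia, was higher in HG (187 ± 5.00 CPM) than in NG (146 ± 1.26 CPM; log2 0.35 ± 0.053, edgeR adjusted p = 1.72e-05) and lower in HG+CD200Fc (152 ± 6.16 CPM) than in HG (log2 -0.30 ± 0.053, adjusted p = 0.000176).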

How the data were processed

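RNA was sequenced in 12 libraries of 4 groups. The authors' deposited count table holds raw counts per gene, not normalized. Their deposited table of comparisons holds log2 values (fold changes), p-values and false discovery rates. Per the submitters' processing notes the build was GRCm38, and the tools were STAR, Salmon, featureCounts of Subread, limma, edgeR and bcl2fastq. The sources used here state neither their roles nor the annotation or the use of strand.

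Of 55774 lines, 287 repeats were dropped, and 99.4% of the identifiers were in GENCODE M21, which gave coordinates and exon lengths. Of the per-sample columns, 0 were unused. Genes were filtered with filterByExpr and libraries were scaled by TMM. The 4 group means were estimated together, from the 12 libraries, by the quasi-likelihood method of edgeR 4.0.16 (R 4.3.3). P-values were adjusted by Benjamini-Hochberg within each of 5 contrasts over all tested genes, and a gene passed under 0.05. SE is the log2 fold change divided by the square root of F. The counts were used as read counts, and how far they stand for separate molecules was not tested.

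Genes, lists and markers were chosen with earlier results of these data known. Named were the 8 genes, up to 4 passing genes of at least 1 CPM per list and contrast by smallest p (the text prints part of them), and the 5 genes closest to Kcna3. Alternatives were DESeq2 size factors, upper quartile scaling, no filter (1 count), limma voom (3.58.1), DESeq2 1.42.0, a stricter filter (in 3 libraries, 10 counts and 1 CPM), a replicate block, only the groups compared, and leaving out each library. The values of some genes are not reported here.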

Additional observations from a re-analysis of the deposited data

Results flagged for a closer look

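The genes below were singled out because the effect of CD200Fc differed between high and normal glucose, by the interaction test of edgeR across all 19182 tested genes, of which 7.20% were called. Values are the log2 effect in high glucose minus that in normal glucose, and no explanation was weighed.

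Among the 8 channel genes this was Kcna3 at 1.79 ± 0.38 (edgeR adjusted p = 0.00323) and Kcnn4 at 0.35 ± 0.086 (adjusted p = 0.0102). Kcna3 was 3.58 ± 1.06 CPM in HG+CD200Fc and 1.61 ± 0.435 CPM in HG, and 1.75 ± 0.166 CPM in NG+CD200Fc and 2.73 ± 0.492 CPM in NG (SD, n = 3 each). Kcnn4 was 137 ± 8.39 CPM in HG+CD200Fc and 112 ± 5.94 CPM in HG, and 137 ± 9.60 CPM in NG+CD200Fc and 143 ± 1.57 CPM in NG.

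In the wider lists the difference was positive for Atp1b3 at 0.29 ± 0.092 (edgeR adjusted p = 0.0493) and for Orai2 at 0.39 ± 0.10 (adjusted p = 0.0143). It was negative for Clcn7 at -0.37 ± 0.073 (edgeR adjusted p = 0.00178), Trpm4 at -0.70 ± 0.16 (adjusted p = 0.00663) and Trpv2 at -0.29 ± 0.077 (adjusted p = 0.0178). It was also negative for Ncf4 at -0.45 ± 0.075 (edgeR adjusted p = 0.000252), P2rx4 at -0.28 ± 0.075 (adjusted p = 0.0175) and Cybb at -0.25 ± 0.068 (adjusted p = 0.0231). Of the 12 fits that each left out 1 library, 8 lost the call of Atp1b3, 8 that of Trpv2, 5 that of P2rx4 and 8 that of Cybb, with adjusted p up to 0.159, 0.0702, 0.0737 and 0.0860 in that order, and limma voom also lost Atp1b3 (adjusted p = 0.075).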

How the results depend on the processing

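Each result was recomputed under 20 alternatives per contrast (19 for the interaction). The calls of Kcna3 and Kcnn4 for HG+CD200Fc versus HG and for the interaction, and of Kcnn4 and Clic1 for HG versus NG, held in all of them. The number of the 8 genes called in HG versus NG was 2 with upper quartile scaling, and 2 to 4 when single libraries were left out. In HG+CD200Fc versus NG+CD200Fc it was 2 with upper quartile scaling, no filter, DESeq2, limma voom and the replicate block, and 0 to 2 when single libraries were left out. Over all genes, NG+CD200Fc versus NG gave 21 calls with no filter, 1 with limma voom, 2 with the replicate block, 9 with only the groups compared and 0 to 8 when single libraries were left out. HG+CD200Fc versus NG+CD200Fc gave 2597 calls with limma voom and 277 to 2288 when single libraries were left out. Leaving out a library removes samples, and the other causes were not tested.

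Nothing in the labels ties the replicate numbers together, and whether they pair the libraries was not settled. Same-numbered libraries of different groups had correlations of their deviations from -0.0316 to 0.106. For differently numbered libraries these were -0.121 to 0.105. With the replicate block, the calls over all genes rose from 4720 to 5258 in HG versus NG and from 3408 to 3842 in HG+CD200Fc versus HG. They rose from 1593 to 2314 in HG+CD200Fc versus NG+CD200Fc and from 1381 to 1723 in the interaction. What lies behind this rise was not tested. With the block Clic1 passed in HG+CD200Fc versus NG+CD200Fc (-0.17 log2, edgeR adjusted p = 0.0238).

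The signs that turned were of log2 values that passed in no setting. In HG+CD200Fc versus NG+CD200Fc these were Kcnn4, whose value was 0.00076 under the stricter filter, 0.0069 by limma voom, 0.03 by upper quartile scaling and -0.05 to 0.041 without single libraries, Kcnj2 at 0.026 with upper quartile scaling and -0.10 to 0.036 without single libraries, Hvcn1 at 0.024 with upper quartile scaling, 0.031 with limma voom and -0.077 to 0.089 without single libraries, and Kcnk13 at -0.0076 to 0.092. Hvcn1 in the interaction was 0.027 with limma voom and -0.15 to 0.065 without single libraries. Without single libraries, HG versus NG gave -0.013 to 0.024 for Kcnk6 and -0.069 to 0.13 for Hvcn1. NG+CD200Fc versus NG gave -0.16 to 0.39 for Kcnh2 and -0.015 to 0.029 for Kcnk6, and HG+CD200Fc versus HG gave -0.0042 to 0.14 for Kcnj2 and -0.093 to 0.028 for Clic1. In HG+CD200Fc versus NG+CD200Fc, Kcnh2 could not be fitted with only the groups compared. Depth limits Kcna3 and Kcnh2 most, with 33 to 96 and 17 to 63 counts per library.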
